A study of Mus musculus with 10 samples.

Results

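In N2A cells, a mouse neuroblastoma line, 22628 listed pairs of alternative acceptors (3' splice sites) more than 3 nt apart had enough reads to be described. They lay in 7506 genes. They were taken from a splicing table of 155519 alternative 3' splice site rows, of which 46312 described pairs with exactly 2 sites. Of these pairs 40778 were more than 3 nt apart, and 22628 of them had at least 10 reads (inclusion plus exclusion) in all 6 N2A samples. The distance was a multiple of 3 in 8240 pairs, which keep the reading frame when they lie in coding sequence, and was not in 14388 pairs, called frame-shifting below.

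In 3 N2A samples Qk was knocked down with a pool of small interfering RNAs (siQk), and 3 control samples got a non-targeting pool (siNT). Both pools were used at 40 nM on 100000 seeded cells, and the RNA of 72 h after transfection was sequenced after selection for polyadenylation. Both groups were thus transfected, and the line carried no other stated change. A second experiment used day 7 glutamatergic neurons derived in culture from mouse embryonic stem cells. They were untreated (n = 2) or held in 100 uM cycloheximide, an inhibitor of translation, for 12 h (n = 2). The replicates are called biological in the labels, with no word on separate cultures, so p-values measure the spread between these samples. Reads of exon events came to between 37872380 and 78456603 in siNT samples and between 26587151 and 80455753 in siQk samples. Within a group, 2 samples differed by 1.44 to 1.79 times what sampling alone gives, so none is a copy of another.

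Junction reads over Qk, the gene targeted by the siRNA, fell from 85.4 ± 4.71 to 11.2 ± 2.6 CPM (exon-event reads scaled to the sample total; SD, n = 3 each), a log2 fold change of -2.91 ± 0.16 (SE, limma adjusted p = 3.01e-04). Of 15 markers of the sympathetic neuroblastoma lineage, 12 were listed, with a summed level of 4757 to 5205 CPM in siNT and 4813 to 5825 in siQk, while Nefl and Nefm were near 0. Among these markers Chga went from 264 ± 8.24 to 365 ± 23.4 CPM, Chgb from 465 ± 14.8 to 632 ± 27.9 and Ncam1 from 415 ± 32 to 327 ± 18.3 (limma adjusted p = 0.0152, 0.0128 and 0.0498). Of 11 markers of glia, immune, endothelial and stromal cells, the sum was 11.7 to 14 CPM in siNT and 15.2 to 19.3 in siQk, and Aqp4 was at 0 in every sample. The widely expressed genes Hnrnpk and Hdac1 also stood near 0 on this measure, at 0.651 and 0.0683 CPM in siNT. A level near 0 in exon-event reads thus does not show that a gene is silent. In bulk RNA, fewer cells of a type and less RNA per cell cannot be told apart, and the part of these sums in the results was not tested. Over all genes, junction coverage was higher in siQk for 321 of 10851 genes (2.96%) and lower for 172 (1.59%) at an adjusted p under 0.05.

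An acceptor is the end of an intron: an AG preceded by a polypyrimidine tract and, further upstream, a branch point. U2af2 binds the tract, U2af1 reads the AG, and Sf1 and then the Sf3b complex hold the branch point. Where AGs lie close together, the spliceosome joins the donor to one or the other, and the exon gains or loses the bases between them. Quaking, the RNA-binding protein made from Qk, binds ACUAAY-type motifs, which resemble the branch point, and is known as a regulator of splicing in glia and muscle. In coding sequence a gained or lost stretch that is no multiple of 3 shifts the frame, and a stop codon met early can send the transcript into nonsense-mediated decay.

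For each pair the upstream site gives the longer exon. Usage of the upstream site is the percent of junction reads that join there, and the bases between the sites are called the segment. The sequences below show the 2 pairs called changed after Qk knockdown (Gpr137, Cask) and 6 uncalled pairs among those with the smallest p and a difference of at least 10 percentage points. They were read from GENCODE M21 transcripts on mm10, 5' to 3' on the gene's strand. The last 12 bases of the preceding exon come first in lower case, the segment is in capitals and 12 bases of the shared exon follow in lower case. For Gpr137, on the minus strand with its segment at chr19:6940402-6940482, the print starts at an annotated start codon inside the segment, 44 bases after the upstream acceptor. The Cask segment lies at chrX:13537827-13537841 (minus strand), that of Nckap1 at chr2:80554785-80554790 (minus), that of Zfp57 at chr17:37006050-37006058 (plus) and that of P4ha1 at chr10:59365289-59365292 (plus). Those of Ccdc163, Ttc14 and Iqgap3, all on the plus strand, lie at chr4:116709438-116709481, chr3:33807839-33807855 and chr3:88115904-88115907.
Gpr137: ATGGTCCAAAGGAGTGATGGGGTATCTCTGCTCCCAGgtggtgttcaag
Cask: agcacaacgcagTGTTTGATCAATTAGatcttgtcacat
Nckap1: cgcaacaacaatCAACAGctggcacagcta
Zfp57: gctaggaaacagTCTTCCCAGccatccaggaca
P4ha1: gaggagttacagGTAGcaaattacggag
Ccdc163: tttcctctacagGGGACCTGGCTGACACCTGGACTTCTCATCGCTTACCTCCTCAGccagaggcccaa
Ttc14: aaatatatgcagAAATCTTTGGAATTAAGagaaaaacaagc
Iqgap3: cccagagagcatGAAGaagcccatcgtc
Each segment ends in AG, as did 15356 of the 15371 segments that could be read. The other 7257 segments lie outside annotated exons and were not read.

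A second set shows well-read coding pairs in which siNT cells used both acceptors, from 4 nt to 78 nt apart. Agfg1 (chr1:82894476-82894481, plus), Tmeff1 (chr4:48650295-48650300, plus) and Slc7a6os (chr8:106202352-106202359, minus) have the short segments, with 0610010K14Rik (chr11:70235465-70235468, minus). Etv4 (chr11:101774228-101774245, minus), Rbm42 (chr7:30645822-30645842, minus), Eif4g3 (chr4:138180490-138180546, plus) and Cstf2 (chrX:134073136-134073213, plus) have longer ones.
Agfg1: aacagcccaatgGTGCAGgtttcgccacgt
Tmeff1: cagatgtgaaagATGCAGgtgatgaaaggg
Slc7a6os: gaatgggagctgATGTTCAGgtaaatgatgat
0610010K14Rik: aacagaaggctgACAGcctgaccctgga
Etv4: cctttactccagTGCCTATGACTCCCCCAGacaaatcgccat
Rbm42: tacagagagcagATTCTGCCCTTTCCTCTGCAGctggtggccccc
Eif4g3: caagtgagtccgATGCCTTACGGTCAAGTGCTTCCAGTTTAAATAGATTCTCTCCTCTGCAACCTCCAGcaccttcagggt
Cstf2: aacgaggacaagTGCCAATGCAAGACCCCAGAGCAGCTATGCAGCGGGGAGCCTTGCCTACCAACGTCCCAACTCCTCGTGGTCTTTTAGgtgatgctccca

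Most pairs were not alternative in these cells. Averaged over the 6 samples, the upstream site took over 98% of the reads in 12520 pairs (55.3%) and the downstream site in 8396 (37.1%). Both sites were used, with a mean upstream usage from 2 to 98%, in 1712 pairs (7.57%). Single samples gave 8.01 to 8.90%, and the share was 3.50% among the 8516 pairs with at least 100 reads in every sample. A usage of 20 to 80% in siNT, called balanced here, was found in 263 pairs (1.16%). Just inside the read minimum, 258 pairs with 10 to under 11 reads in their shallowest sample had both sites used in 25.2%, and just outside it 253 pairs with 9 to under 10 reads in 23.7%.

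Which acceptor was used depended on the distance. At 4 to 12 nt the upstream site took over 98% of the reads in 90.2% of 7138 pairs and the downstream site in 2.62%. At 13 to 30 nt the order was the opposite, with 31.4% upstream and 62.8% downstream among 6424 pairs. Beyond 100 nt the downstream site held 64.5% of 2770 pairs, whereas at 31 to 100 nt the upstream site held 52.6% of 6296. The turn was sharp: upstream-only pairs numbered 305 of 381 at 12 nt, 139 of 263 at 13 nt and 112 of 268 at 14 nt. Among single distances up to 30 nt both sites were used most often in the closest pairs, in 11.6% of 1923 pairs at 4 nt and 11% of 1147 at 5 nt, and in 1.35% of 297 at 11 nt. By class the share was 7.23% at 4 to 12 nt, 5.81% at 13 to 30 nt, 9.48% at 31 to 100 nt and 8.16% beyond. The order of the classes depended on depth. With at least 100 reads in every sample the shares were 4.21, 2.45, 3.84 and 3.54% in the same order. At 4 nt the share was then 5.92%. Pairs exactly 3 nt apart, which were not members, had both sites used in 40.0% of 1896. These are shares of pairs, which share genes and are no replicates, so no test was run on them.

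**Figure D1:**
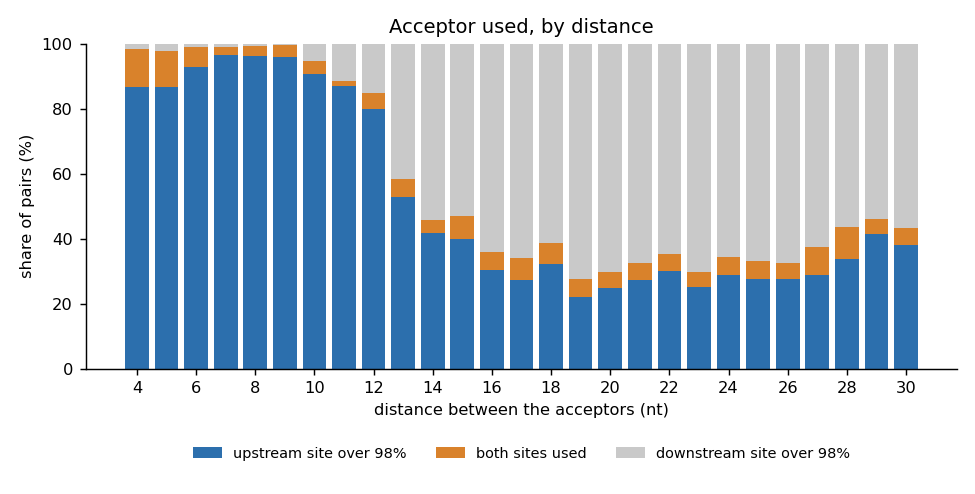
Share of pairs (%) by the distance between the acceptors (nt, 4 to 30), split by whether the upstream site took over 98% of the reads, both sites were used, or the downstream site took over 98%. The upstream site holds most pairs up to 12 nt and the downstream site from 14 nt on, while the share with both sites used is 11.6% at 4 nt and 1.35% at 11 nt.

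Use of both acceptors went with their annotation. In 1584 pairs GENCODE held both acceptors, and 719 of these (45.4%) had both sites used. With the upstream acceptor alone annotated the share was 4.51% of 12515 pairs, and with the downstream one alone 4.78% of 8485. The annotation is itself built from observed transcripts, so this is a description of how it lines up with N2A reads.

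Sequence at the downstream acceptor differed between pairs that used it and pairs that did not. Among pairs with both acceptors annotated, segments ending in CAG (1087) or TAG (276) had both sites used in 48.1% and 47.1%. Segments ending in AAG (184) had both used in 32.6% and those in GAG (30) in 10%. The median downstream usage in siNT was 15.7% for CAG, 40.7% for TAG, 1.12% for AAG and 0% for GAG. In the printed pairs Ttc14 and Iqgap3 end in AAG and Cask, P4ha1 and Cstf2 in TAG.

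The stretch before the downstream AG also varied with use. For annotated segments of at least 25 nt, the 20 bases before that AG were under 50% pyrimidine in 36 pairs, and the downstream site was the major one in 11.1% of them. In 222 pairs with at least 80% pyrimidine it was the major one in 66.7%. The whole Rbm42 segment, at 21 nt too short for that count, is 76.2% pyrimidine. The Quaking-type motif ACTAAC or ACTAAT was searched on the transcript strand only, in segments of at least 30 nt that could be read. Segments outside annotated exons are thus left out of these counts. It was found in 92 of 5645 read segments (1.63%) and in 10 of the 597 of them with both sites used (1.68%). None of those 10 pairs was called changed after Qk knockdown, and the smallest unadjusted limma p among them was 0.104, for Tmem106c. In all 10 the mean upstream usage was higher in siQk, by 0.25 to 7.79 points with a median of 2.83, and in 2 of them the groups did not overlap. Among the other 587 read segments of that length with both sites used, 292 were higher and 295 lower, with a median of -0.07 points. In 25 of the 587 the usage was higher without overlap. An unadjusted limma p under 0.05 was found for 33 of the 587 and for 0 of the 10. The motif was looked at with earlier results known, so these counts carry no test.

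In coding sequence, balanced pairs were a larger share where the frame was kept. Among pairs in coding sequence, 93 of 7774 that keep the frame were balanced (1.2%) against 79 of 13346 that shift it (0.592%). Counted in each sample on its own, the share was 1.17 to 1.29% with the frame kept and 0.592 to 0.644% with it shifted. The same pairs are counted in all 6 samples, so these ranges do not measure how sure the contrast between the classes is. That contrast was not tested. With both acceptors annotated the shares were 15.4 to 17% of 482 and 6.78 to 7.99% of 826 coding pairs. In 5' untranslated regions, where no frame is at stake, 49 of 773 pairs were balanced (6.34%). There the order was the reverse, with 4.1% of 244 pairs at a multiple of 3 and 7.37% of the other 529. The shallowest sample of the 773 pairs held a median of 48 reads, against 72 for coding pairs. The cause of these differences was not tested.

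The predicted protein divides the coding pairs further. A stop was called early when it lay over 50 nt before the last exon junction, in the frame of the best-ranked annotated transcript. With both acceptors annotated, 429 frame-keeping pairs gave no early stop from either site, and 17.2% of them were balanced. Frame-shifting pairs were balanced in 4.61% of 412 when the downstream site gave the early stop and in 6.87% of 262 when the upstream one did. In 132 frame-shifting pairs where neither site gave one, 12.1% were balanced. The minor site took a median of 13.9% of the reads in the frame-keeping pairs without a stop that used both sites, 5.07% and 6.96% in the frame-shifting pairs with one, and 6.06% in the frame-shifting pairs with none. Annotation ranks principal transcripts first and these rarely hold an early stop, so which site dominated is not independent of the class.

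**Figure D2:**
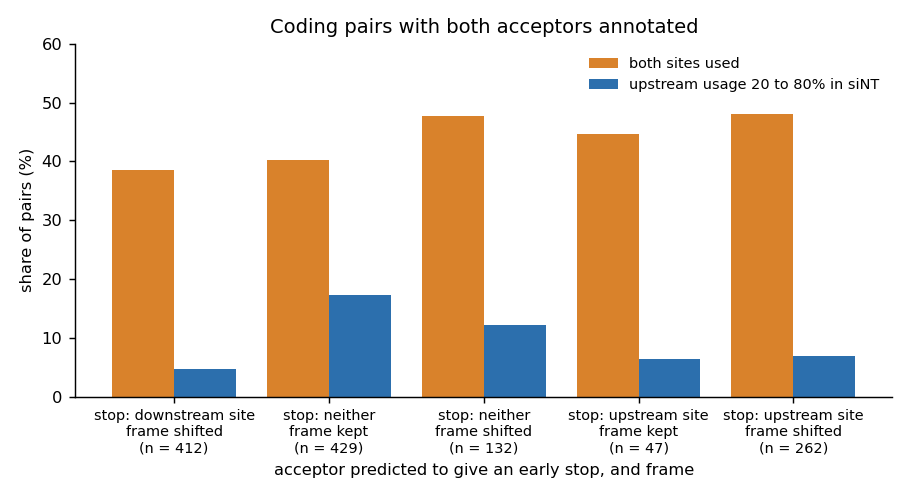
Share of pairs (%) with both sites used (orange) and balanced in siNT (blue), for coding pairs with both acceptors annotated, by which acceptor is predicted to give an early stop and by frame; classes of at least 40 pairs are drawn. Balanced pairs are most common, at 17.2%, where the frame is kept and neither site gives an early stop.

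Where both sites were used, most pairs of either frame still had 1 major site, and more of the frame-shifting pairs had the upstream one. Of 568 frame-keeping pairs 188 had under 10% upstream usage in siNT and 183 had 90% or more. Of 1144 frame-shifting pairs 349 and 517 did. The median siNT usage over pairs was 43.6% with the frame kept and 85.1% with it shifted. The frames also differ in distance: 399 of the 1144 frame-shifting pairs lay at 4 to 12 nt, where the upstream site was the usual one, against 117 of the 568 frame-keeping pairs. Within a distance class the medians lay closer and had no common order. With the frame kept and shifted they were 89.8 and 95% at 4 to 12 nt, 18.8 and 18.5% at 13 to 30 nt, 29.2 and 32.6% at 31 to 100 nt, and 13.1 and 8.58% beyond 100 nt. Why the medians of the frames differ was not tested.

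**Figure D3:**
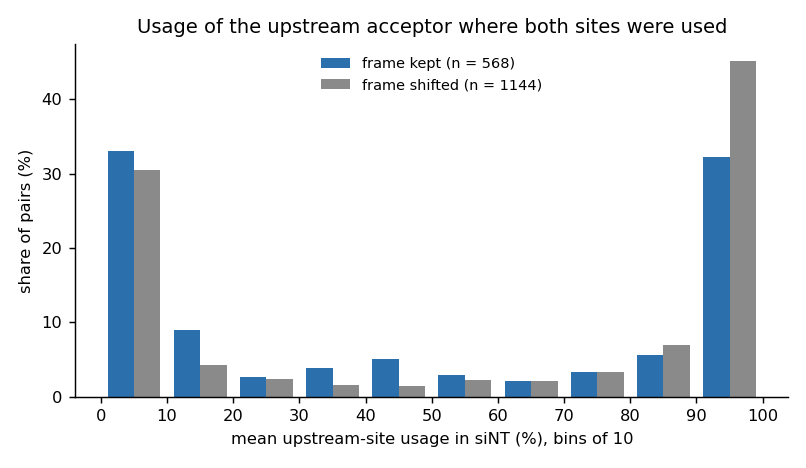
Share of pairs (%) by mean upstream-site usage in siNT (%, bins of 10) for the 568 frame-keeping and 1144 frame-shifting pairs with both sites used. Both groups pile up at the ends, and the frame-shifting pairs have 45.2% of their number at 90% or more against 32.2% for frame-keeping pairs.

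The best-read balanced pairs of each distance class show what such a choice does to a protein. The values here are levels of upstream usage, and none of these pairs was called changed by Qk knockdown. Agfg1, an adaptor of endocytosis, had 78.9 ± 2.06% in siNT (SD, n = 3) and 80.9 ± 1.87% in siQk, on 301 to 1094 reads a sample, and its sites give proteins of 561 and 559 residues. Tmeff1, a transmembrane protein with follistatin-like domains, had 71.8 ± 2.79% and 70.4 ± 1.09%. In Etv4, an ETS transcription factor, 76 ± 2.28% and 77.3 ± 2.74% of the reads joined the upstream site, which adds 18 nt and takes the protein from 479 to 485 residues. Its samples ranged from 73.5 to 78.1% in siNT and from 75.2 to 80.4% in siQk, so the groups overlapped.

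Longer frame-keeping segments were also used in part. Rbm42, an RNA-binding protein, had 56.5 ± 1.42% in siNT and 59.5 ± 4.67% in siQk. Eif4g3, a scaffold of translation initiation, had 49.7 ± 6.66% and 51.9 ± 2.23% with a 57 nt segment. Cstf2, a subunit of the cleavage stimulation factor of 3' end formation, had 67 ± 8.46% and 68.7 ± 7.53% for 78 nt, and proteins of 580 and 554 residues. Hcfc1, a chromatin cofactor of transcription, had 42.9 ± 3.7% and 37 ± 5.53% for 132 nt, and Aen, a nuclease, had 34.6 ± 6.51% and 31.1 ± 7.24% for 114 nt. The groups overlapped for each of these pairs.

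Of the balanced pairs that shift the frame, 8 are described, the 2 best-read of each distance class. Most of these 8 lay outside coding sequence, whereas 79 of all 149 balanced frame-shifting pairs lay in it. Pih1d1 (27.4 ± 1.38% in siNT), Tnpo2 (48.9 ± 3.46%), Repin1 (68.5 ± 6.54%) and Tcf19 (22.6 ± 1.93%) have theirs in the 5' untranslated region, and Snhg17 (76.3 ± 2.39%) in a transcript without coding sequence. Of these only Pih1d1, a cochaperone subunit, had groups that did not overlap, with 32.1 ± 2.42% in siQk (limma adjusted p = 0.992). Eno1, the glycolytic enolase, had 59.3 ± 1.92% across 23 nt in its start or stop codon region, and near-identical copies of this gene make its value uncertain. In coding sequence, the 4 nt pair of 0610010K14Rik (71.2 ± 2.74%) gives 156 or 136 residues and no early stop. The upstream site of Slc7a6os, at 20.3 ± 2.95%, is predicted to give an early stop.

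Few of these pairs were called changed after Qk knockdown. In the fit over all 9943 alternative 3' splice site rows with both sites used, 10 rows (0.101%) were called. These rows hold both rows of a pair, so 1 pair can supply 2 of the called rows. A call needs an adjusted p under 0.05 and 10 or more percentage points between the group means. The members entered with 1712 pairs, and 2 were called (0.117%), 1 higher and 1 lower in siQk. Both were among the 568 frame-keeping pairs. Leaving out siNT replicate 1 gave 6 calls and leaving out siNT replicate 2 or siQk replicate 1 gave 1. Without siNT replicate 3 there were 2 calls, and neither was Gpr137 or Cask. Of the 1144 frame-shifting pairs 0 were called, with 61 at an unadjusted limma p under 0.05. At that unadjusted level 90 members (5.26%) stood beside 4.85% of all rows, and 21 members (1.23%) differed by 10 points or more with no overlap beside 1.23% of all rows. The shares of members thus lay near those of all rows. All rows include both rows of each member pair, so the 2 sets are not independent and the shares are alike in part for that reason. The median difference was -0.15 points, with 807 pairs higher and 905 lower, and the median size of a difference was 1.66 points against 1.61 over all rows.

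**Figure D4:**
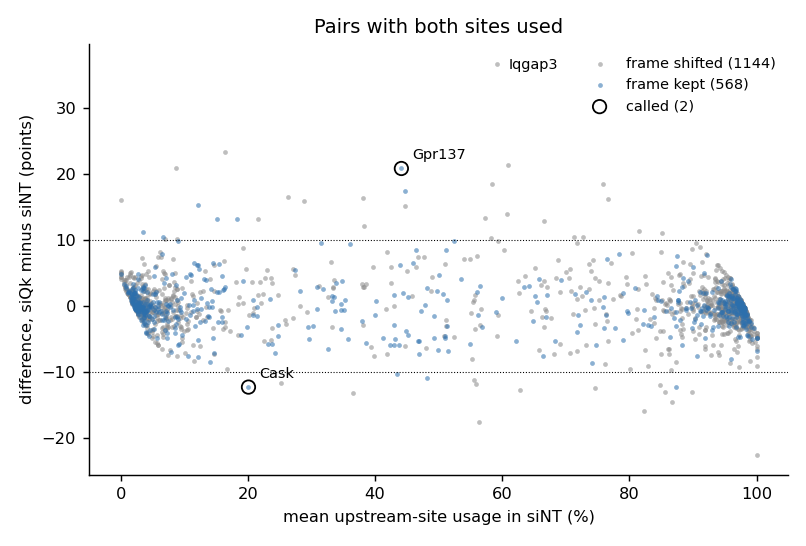
Difference in upstream-site usage (siQk minus siNT, points) against mean usage in siNT (%) for the 1712 pairs with both sites used; dotted lines mark 10 points and circles the 2 called pairs. Most points lie between the lines, Gpr137 is called above and Cask below them, and Iqgap3, at 36.8 points, is the highest point.

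Gpr137, an orphan membrane protein of many passes, used its upstream acceptor more after knockdown. Upstream usage was 43.6, 49.2 and 39.6% in siNT and 68.6, 64.2 and 62.2% in siQk, on 151 to 263 and 91 to 310 reads. Every siQk sample lay above every siNT sample. The mean rose from 44.1 ± 4.81 to 65 ± 3.27% (SD, n = 3), with a change in log2 odds of 1.23 ± 0.23 (SE, limma adjusted p = 0.0032). Without siNT replicate 3 the adjusted p was 0.0509, and with limma on the percent itself it was 0.413.

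The Gpr137 segment is 81 nt long, both of its acceptors are annotated, and 2 annotated transcripts start translation inside it. It begins with GT and ends with AG, and the table also lists it as an intron. That intron row went from 38.4 ± 3.79% retained to 55.7 ± 4.62%, again without overlap, and the rows share reads, so more joining to the upstream acceptor and more retention of the segment cannot be told apart. Only 9 of the 22628 pairs had a segment listed as an intron, 2 of them with both sites used. A cassette exon of Gpr137, downstream of the pair, went from 80.7 ± 1.49 to 63.9 ± 9.15%, without overlap, while junction coverage of the gene differed by -0.18 on the log2 scale (adjusted p = 0.356).

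Cask, a scaffold of the membrane-associated guanylate kinase family that is abundant at synapses, moved the other way. Its upstream acceptor took 18.9, 19.1 and 22.2% of the reads in siNT and 3.57, 10.7 and 9.06% in siQk, on 121 to 391 reads. All siQk samples were below all siNT samples, and siQk replicate 1 was the lowest. The mean fell from 20.1 ± 1.86 to 7.79 ± 3.75% (SD, n = 3), with a change in log2 odds of -1.66 ± 0.33 (SE, limma adjusted p = 0.0103). The adjusted p was 0.0924 without siNT replicate 2, 0.065 without siNT replicate 3, 0.0732 without siQk replicate 1 and 0.522 with limma on the percent. The 15 nt segment gives 897 in place of 892 residues. In the same gene a 36 nt cassette exon went from 42.7 ± 0.98 to 30.3 ± 2.4%, without overlap, and a 9 nt one from 47 ± 8.17 to 67.3 ± 15.4%, with overlap.

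Of the 1712 members in the fit, 48 differed by 10 points or more, the called pairs included, beside 265 of all 9943 rows. Of the 48, 31 were higher and 17 lower in siQk. Their shallowest sample held a median of 21.5 reads against 38 over all members in the fit, and 42 of the 48 had under 50 reads there. Among the 682 pairs with at least 50 reads in every sample, 6 differed by 10 points or more. The 12 with the smallest unadjusted p are described next, and none of them was called.

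Nckap1, a subunit of the WAVE complex that drives actin branching, was the best read of them. Upstream usage of its 6 nt pair was 7.07, 12.6 and 17% in siNT and 23.4, 28.8 and 30.3% in siQk, on 191 to 791 reads. The groups did not overlap, and the difference was 15.3 points (limma adjusted p = 0.195). Its segment CAACAG gives 1128 in place of 1126 residues. Nckap1 passed the threshold in 6 of the 15 other settings.

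Iqgap3, a scaffold of the IQGAP family found in dividing cells, had the largest difference of all members in the fit. Its upstream acceptor took 63.3, 54.9 and 59.5% of the reads in siNT and 100, 100 and 88% in siQk, on 45 to 143 reads. The downstream site, 4 nt on and after AAG, was thus not seen in siQk replicates 1 and 2. The difference was 36.8 points with no overlap (limma adjusted p = 0.879), and it passed in 6 of 14 other settings. That downstream site is not annotated and is predicted to give an early stop, with 1403 residues in place of 1632.

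Acceptors 4 nt apart made up 17 of the 48 pairs with large differences, and 223 of the 1712 members in the fit. Kif4, a chromokinesin, had 62.2, 70.3 and 50.1% in siNT and 88, 88 and 71% in siQk on 13 to 57 reads, without overlap. P4ha1, the catalytic subunit of collagen prolyl hydroxylase, had 25.9, 33.3 and 19.8% and 55.2, 44.9 and 28.6%, with overlap. Abracl, in its 5' untranslated region, had 77, 73.2 and 73.5% and 62.6, 55.5 and 68.1%, without overlap. The adjusted p was 0.879 for Kif4 and Abracl and 0.858 for P4ha1.

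Some close pairs are listed a second time, as a 5' splice site pair of the same intron with the same spacing. This held for 159 members (0.703%), among them 96 of the 1923 at 4 nt, and for 11 of the 43 balanced pairs at 4 nt. Among the pairs with a difference of at least 10 points it held for 7 of 48, and for 6 of 17 at 4 nt. In Kif4 and P4ha1 the 2 rows gave the same usage in every sample to within 0.1 and 0.16 points. Equal usage in both rows, to within 0.5 points in every sample, was found for 75 of the 159, for 7 of the 39 with both sites used, and for 3 of the 7 with a difference of at least 10 points. For these the reads do not say whether the acceptor or the donor moved. Without the 159 members, both sites were used in 7.45% of all pairs and in 10.7% of 1827 pairs at 4 nt.

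The other pairs of this group had few reads or wide spread. Rgs3, a regulator of G-protein signalling, had 7.4, 6.6 and 6.17% in siNT and 17.8, 17.1 and 16.9% in siQk for 363 nt, without overlap (limma adjusted p = 0.951). Fam89b had 52.7, 60.5 and 56.1% and 42.3, 33.2 and 40.9% for 49 nt, without overlap (0.879 by the same test). Crebrf, a regulator of stress-responsive transcription, was at 0% in all siNT samples and at 25, 18.8 and 4.35% in siQk for 62 nt, on 12 to 47 reads. Its intron, which holds the segment, was retained at 2.16 ± 1.88% in siNT and 13.1 ± 9.28% in siQk. The groups overlapped for the intron, which had 14 reads in its shallowest sample.

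Zfp57, a zinc finger protein that keeps imprints, had 52.2, 37.7 and 44.4% in siNT and 68.2, 45.7 and 72.8% in siQk for 9 nt, with overlap, and passed the threshold in 3 of 15 other settings. Ttc14 had 74.5, 90.6 and 81.6% and 60, 63.2 and 75.8% for 17 nt, with overlap. Eif3h, a subunit of initiation factor eIF3, had 12, 8.72 and 5.21% and 42.8, 37 and 8.76%, where siQk replicate 3 lay among the controls. Ccdc163 was at 100% in all siNT samples and at 56.5, 100 and 75.5% in siQk, on 11 to 36 reads.

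**Figure D5:**
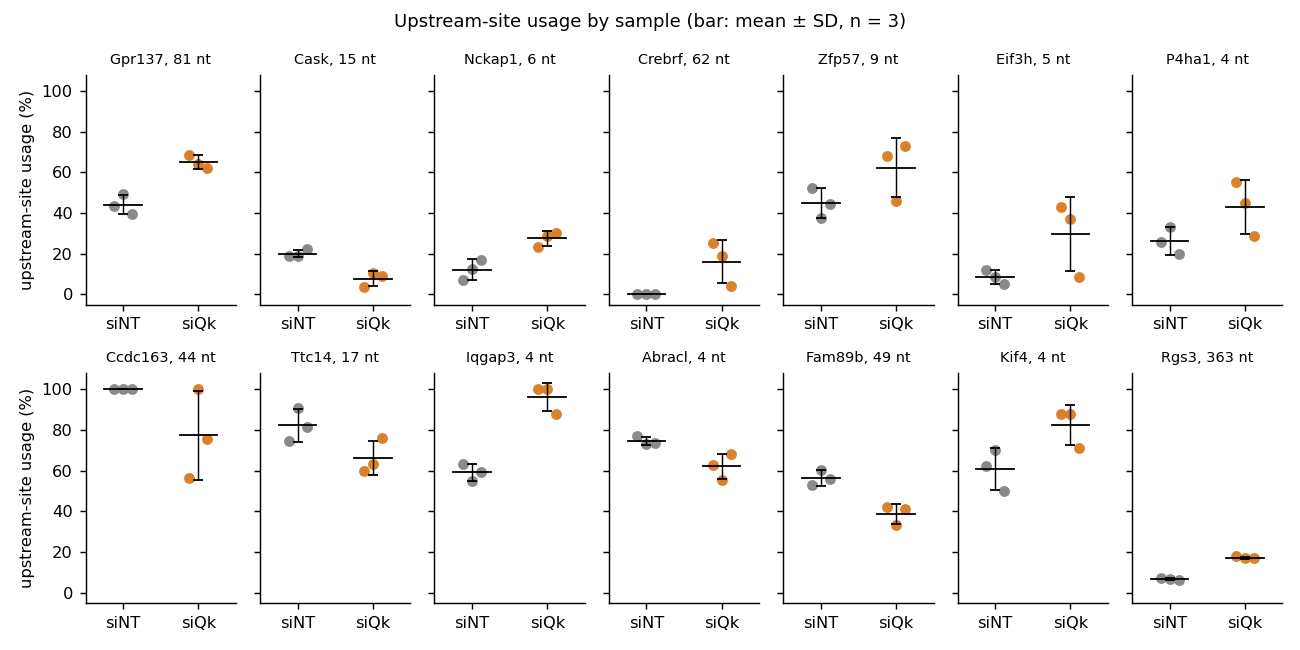
Upstream-site usage (%) in each siNT and siQk sample for the 2 called pairs (Gpr137, Cask) and the 12 pairs not called with the smallest unadjusted p among differences of at least 10 points; points are samples and bars the mean ± SD (n = 3). The groups overlap in Zfp57, Eif3h, P4ha1, Ttc14 and Ccdc163 and are apart in the other panels.

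Medians over all members sit near the ceiling, since over 98% of the reads joined the upstream site in 55.3% of pairs, and they say little about a shift. The median usage of frame-keeping pairs was 99.4 ± 0.09% in siNT and 99.5 ± 0.14% in siQk (SD, n = 3, exact permutation p = 0.7, two-sided). For frame-shifting pairs it was 99.4 ± 0.12% and 99.5 ± 0.25% (exact permutation p = 0.6). With 3 samples against 3 this test cannot go below 0.10. Over pairs that used both sites the medians were 42.3 ± 1.45% and 41.4 ± 0.74% with the frame kept (exact permutation p = 0.4), and 84.5 ± 0.44% and 83.9 ± 0.35% with it shifted (exact permutation p = 0.2), so the direction was the opposite there.

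No gene of acceptor recognition passed the coverage test. Of 28 measured genes of 3' splice site recognition, 0 passed the limma test of junction coverage after adjustment, with 5 at an unadjusted p under 0.05, beside 2.96% higher and 1.59% lower over all genes and 20.4% of all genes at that unadjusted level. Phf5a, a subunit of the Sf3b complex, had the smallest adjusted p: 29.4, 21.3 and 23.8 CPM in siNT and 31.3, 37.2 and 36.9 in siQk, all siQk samples higher (log2 fold change 0.50 ± 0.14 SE, adjusted p = 0.0769). U2af2 stood at 142 ± 6.63 and 150 ± 7.76 CPM, and U2af1 at 23 ± 3.03 and 29 ± 4.02 (adjusted p = 0.625 and 0.226). Of 15 genes of nonsense-mediated decay 0 passed in limma, with 2 at an unadjusted p under 0.05, again beside 20.4% of all genes. Of 58 measured genes in a list of other splicing regulators 2 passed, both lower in siQk: Qk itself and Ptbp2. Ptbp2 went from 183 ± 10.7 to 131 ± 2.64 CPM (log2 fold change -0.48 ± 0.08 SE, limma adjusted p = 0.0152).

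These genes carry such acceptor pairs themselves, mostly with 1 site in use. The 3' splice site recognition genes held 106 members, 4 with both sites used, and the decay genes held 53, 3 with both used. U2af1l4, a paralogue of the small U2AF subunit, used its upstream site at 91.2 ± 3.16% in siNT and 92.8 ± 2.35% in siQk, and its downstream site is predicted to cut the protein from 220 to 37 residues. Gpatch1 had 94.7 ± 2.19% and 92 ± 3.73%, U2af2 5.48 ± 1.44% and 5.3 ± 1.64% in its 5' untranslated region, and Sf3b3 12.1 ± 6% and 18.3 ± 11.6%. Groups overlapped in all 4, and 0 of them reached an unadjusted limma p under 0.05.

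Other lists held pairs with both sites used in named regulators. Of 159 members in 58 splicing regulators, 6 used both sites. The 39 nt pair of Acin1, a subunit of the ASAP complex that joins the exon junction complex, was balanced, with 72.7, 51.9 and 65.6% in siNT and 75.1, 66.7 and 57.2% in siQk, and the groups overlapped. Celf1 had 80.9 ± 0.85% in siNT and 83.5 ± 2.01% in siQk for 12 nt, and Tial1 16.2 ± 1.98% and 18.8 ± 2.42% for 51 nt. The Celf1 samples did not overlap, with an adjusted p of 0.992 in the limma fit. In 27 chromatin genes 12 members used both: Setd5 had 44.4 ± 2.83% and 46.3 ± 2.13% for 57 nt, and Chd8, a chromatin remodeller, 32.6 ± 1.78% and 26 ± 3.23% for 24 nt. The Chd8 groups did not overlap either, with the same adjusted p. The 5 nt pair of Mta1, a subunit of a deacetylase complex, had 38.6 ± 6.52% and 42 ± 4.36% and is one of those also listed as a 5' pair.

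In cytoskeleton and adhesion genes 5 of 227 members used both sites. Mapt, which makes tau, had 66.9 ± 2.38% and 65.2 ± 5.21% for 48 nt, and Ank3, ankyrin-G of the axon initial segment, 43.4 ± 6.37% and 33.1 ± 9.03% for 15 nt. Both overlapped between groups. Arfgap1, of the endocytosis and traffic list (5 of 115), had 8.6 ± 2.42% and 4.54 ± 0.24% for 6 nt, without overlap (limma adjusted p = 0.992). No member of any list was called, beside 0.117% of all members in the fit. An unadjusted limma p under 0.05 was found for 2, beside 5.26% of all members in the fit. These were Nckap1, 1 of the 5 cytoskeleton members with both sites used, and the 8 nt pair of Gata3. The Gata3 pair was 1 of 2 such members of the neuroblastoma markers, with 98.1, 100 and 92.2% in siNT and 94.9, 87.8 and 91.8% in siQk.

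The neuron table overlapped these pairs little. It covers microexon-sized pieces, with 26 alternative acceptors among 2469 entries, and 4 members matched one of its entries by position. They are named as the only matches, after their values were seen. Nptn, which makes the cell adhesion protein neuroplastin, stood out by its level. Its 12 nt segment, at chr9:58650497-58650508 on the plus strand, is shown with the end of the preceding exon.
Nptn: aggttcctgatgATGATGAACCAG
In the authors' deposited table the Nptn segment was at 48.7% in untreated neurons and 74.3% under cycloheximide, with a deposited probability of a difference of 1. In N2A cells it was at 97.4, 100 and 100% in siNT and at 100% in all siQk samples. The authors' deposited table gave Syt17, a synaptotagmin-family protein, 32.7% and 20.5% for 5 nt in its 5' untranslated region (probability 0.865), against 19.6 ± 5.8% in siNT and 25.2 ± 8.7% in siQk. For Wdr61 it gave 88.7% and 86.6% (siNT 92 ± 0.59%) and for Rad18 8.04% and 2.48% (siNT 2.48 ± 0.87%) in the authors' deposited table. The Rad18 entry there is typed CE and not AA, the type of the alternative acceptors, so its percent is another quantity. These neuron values combine replicates and come from another program, so levels of neurons and N2A cells stand side by side without a test.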

How the data were processed

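The members and gene lists were chosen with earlier results of these data known. The genome build was mm10 per the submitters' processing notes. The programs were not given in the sources used here. The authors deposited a percent (percent spliced in) for each event and N2A sample, and beside it a quality cell of text, another kind of value, with inclusion and exclusion read numbers. The neuron values were deposited by the authors as a fraction per condition, with a probability and a difference, each taken as a score, replicates combined; they are printed in percent. The first neuron column was taken as untreated.

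Rows with a mean percent from 2 to 98 were fitted with limma 3.58.1 (R 4.3.3; robust moderated test, variance trend, two-sided) on log2 of inclusion over exclusion reads, 0.5 added to each. P-values were adjusted by Benjamini-Hochberg over all 9943 rows, which hold both rows of a pair. Reads of exon events were summed per gene, scaled to the sample total (CPM) and tested on log2(value + 0.5) with limma over genes averaging 20 reads. Low genes' folds are understated on this scale, and a read can serve several events. The code was tested on simulated data.

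Described pairs are every called member, the 12 uncalled ones with the smallest p among differences of at least 10 points, the 2 best-read balanced ones in each of 8 classes of frame and distance, and up to 4 per gene list. Positions, frames and sequences came from GENCODE M21. A genome sequence was not used here, so introns were not read. Alternatives left out samples, filters or weights, or used a replicate block. Python 3.11.15, pandas 2.3.3, numpy 2.4.6 and matplotlib 3.10.9 were used.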

Additional observations from a re-analysis of the deposited data

How the results depend on the processing

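Against 2 called pairs, leaving out 1 sample gave 1 to 6. Weights from the sampling variance gave 5, and 4 were called with no filter on mean usage, with the replicate block, and without the robust option. Gpr137 and Cask were among the called pairs in these 4 settings. Limma on the percent called 0, with 87 at an unadjusted p under 0.05, and a rule of 15 points and no overlap, with no p, gave 9. In genes with no other alternative 3' splice site event in the fit there was 1, Cask. The cause of these differences was not tested. Same-numbered samples of the groups correlated by 0.0688, 0.0578 and 0.109 in their deviations, each sample best with its own number, a hint from the data only, so the replicate block is given as an alternative.

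The difference in median usage of frame-keeping pairs, 0.055 points, ranged down to -0.0233 when a sample was left out, and was -0.967 over pairs using both sites and -0.221 from summed reads. For frame-shifting pairs, 0.155 points became -0.628 and -0.0935. The cause was not tested. Of the 3' splice site recognition genes 0 to 1 passed when a sample was left out (Phf5a without siQk replicate 1, adjusted p = 0.0341 in limma), and 4 passed with the replicate block (Phf5a, Slu7 and Gpatch8 higher, Sf3b1 lower), named after their values were seen. Qk fell under every alternative run.

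With at least 100 reads in every sample, chosen after seeing the data, both sites were used in 3.5% of all pairs, 4.02% with the frame kept and 3.17% with it shifted. At the read minimum of the members the order of the frames was the reverse, 6.89% and 7.95%. The cause was not tested. Reads copied by PCR are not separate molecules, so depth overstates precision.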
